A study of Mus musculus with 15 samples.

Results

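The HOX genes were taken as every row of the per-library count tables whose symbol is Hox, a cluster letter from a to d, and a number. There were 39 of them among the 78298 genes listed, and the 38 described are 10 in the HOXA cluster, 10 in HOXB, 9 in HOXC and 9 in HOXD. The libraries were poly(A) RNA-seq of mouse small intestinal organoids, grown from crypts of female C57BL/6J mice aged 8 to 16 weeks and collected 5 days after seeding. All of them carried a lentiviral transgene behind the weak, broadly active L30 promoter with puromycin selection, so the reference condition was transduced as well. Halo-NLS organoids expressed a nuclear HaloTag alone, and SOX9-mEGFP_budding and SOX9-Halo_budding organoids expressed SOX9, a transcription factor of intestinal stem and Paneth cells, fused to mEGFP or to HaloTag. SOX9-mEGFP_spheroid and SOX9-Halo_spheroid were cultures of the same SOX9 lines after they had turned from budding organoids into round spheroids. The spheroid cultures carried a second transgene, H2B-mScarletI with neomycin resistance in the SOX9-mEGFP line and H2B-mEGFP with zeocin resistance in the SOX9-Halo line, and they were at later passages than the budding cultures of their line. Morphology, passage and second transgene therefore cannot be told apart. The paper places SOX9-mEGFP_spheroid before SOX9-Halo_spheroid in passage and in progression of the spheroid shape. The spheroid conditions thus differ in these as well as in tag and second transgene. Each condition had 3 libraries from 1 stable line, and p-values measure the spread between those libraries.

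HOX genes encode homeodomain transcription factors that give cells their position along the body axis. In each cluster they sit in a row, and genes at the 3′ end of the row (low paralog numbers) are switched on earlier and further forward in the embryo than genes at the 5′ end. Members at the same place in different clusters form a paralog group. Embryonic gut uses them together with the CDX factors to set regional identity, mostly in the mesenchyme and also in the epithelium. Retinoic acid opens clusters from the 3′ end, Polycomb proteins keep them silent, and PBX and MEIS proteins bind DNA beside HOX proteins.

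The libraries held 28062722 to 40559766 reads counted on genes, and 24214 to 40375 genes had a read. Halo-NLS replicate 3 stood apart with the most genes, 40375, and with 28 HOX genes that had at least 1 read. Normalized counts of Sox9 (counts divided by library scaling factors) were 302 to 760 in the Halo-NLS libraries, 6411 to 11235 in SOX9-mEGFP_budding, 1320 to 10414 in SOX9-Halo_budding with the low value in replicate 1, 8624 to 23376 in SOX9-mEGFP_spheroid and 10398 to 14660 in SOX9-Halo_spheroid. Reads from the transgene and from the chromosomal gene are not separated in these values. Summed epithelial markers (10 genes, among them Epcam and Cdh1, none at 0 in any condition) were 206330 to 230030 in SOX9-Halo_spheroid, 473420 to 526150 in SOX9-mEGFP_spheroid and 400380 to 504170 in Halo-NLS. Under the thresholds given below, 6 of the 10, Epcam among them, were lower and 1 was higher in SOX9-Halo_spheroid than in Halo-NLS. Over all genes tested 15.2% were lower there and 13.6% were higher. In SOX9-mEGFP_spheroid 0 were lower and 1 was higher, where 12.1% of all genes tested were lower and 15.3% were higher.

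HOX expression stood out in the SOX9-Halo_spheroid libraries, and there it lay in the HOXA cluster. These 3 libraries held 887, 1355 and 1464 reads on the 38 HOX genes, while the other 12 libraries held 1 to 132. Of these 3706 reads in SOX9-Halo_spheroid, 3624 (97.8%) fell on the 8 genes from Hoxa2 to Hoxa10, and Hoxa7 alone took 48.9%. The 28 genes of HOXB, HOXC and HOXD never exceeded 26 reads in any library, and Hoxd12 had no read in any of them. The SOX9-mEGFP_spheroid libraries lay at the other end with 7, 1 and 11 HOX reads and no read in 28 of the 38 genes. In bulk RNA, a change in the share of cells that express a gene and a change in the RNA per cell cannot be told apart.

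**Figure D1:**
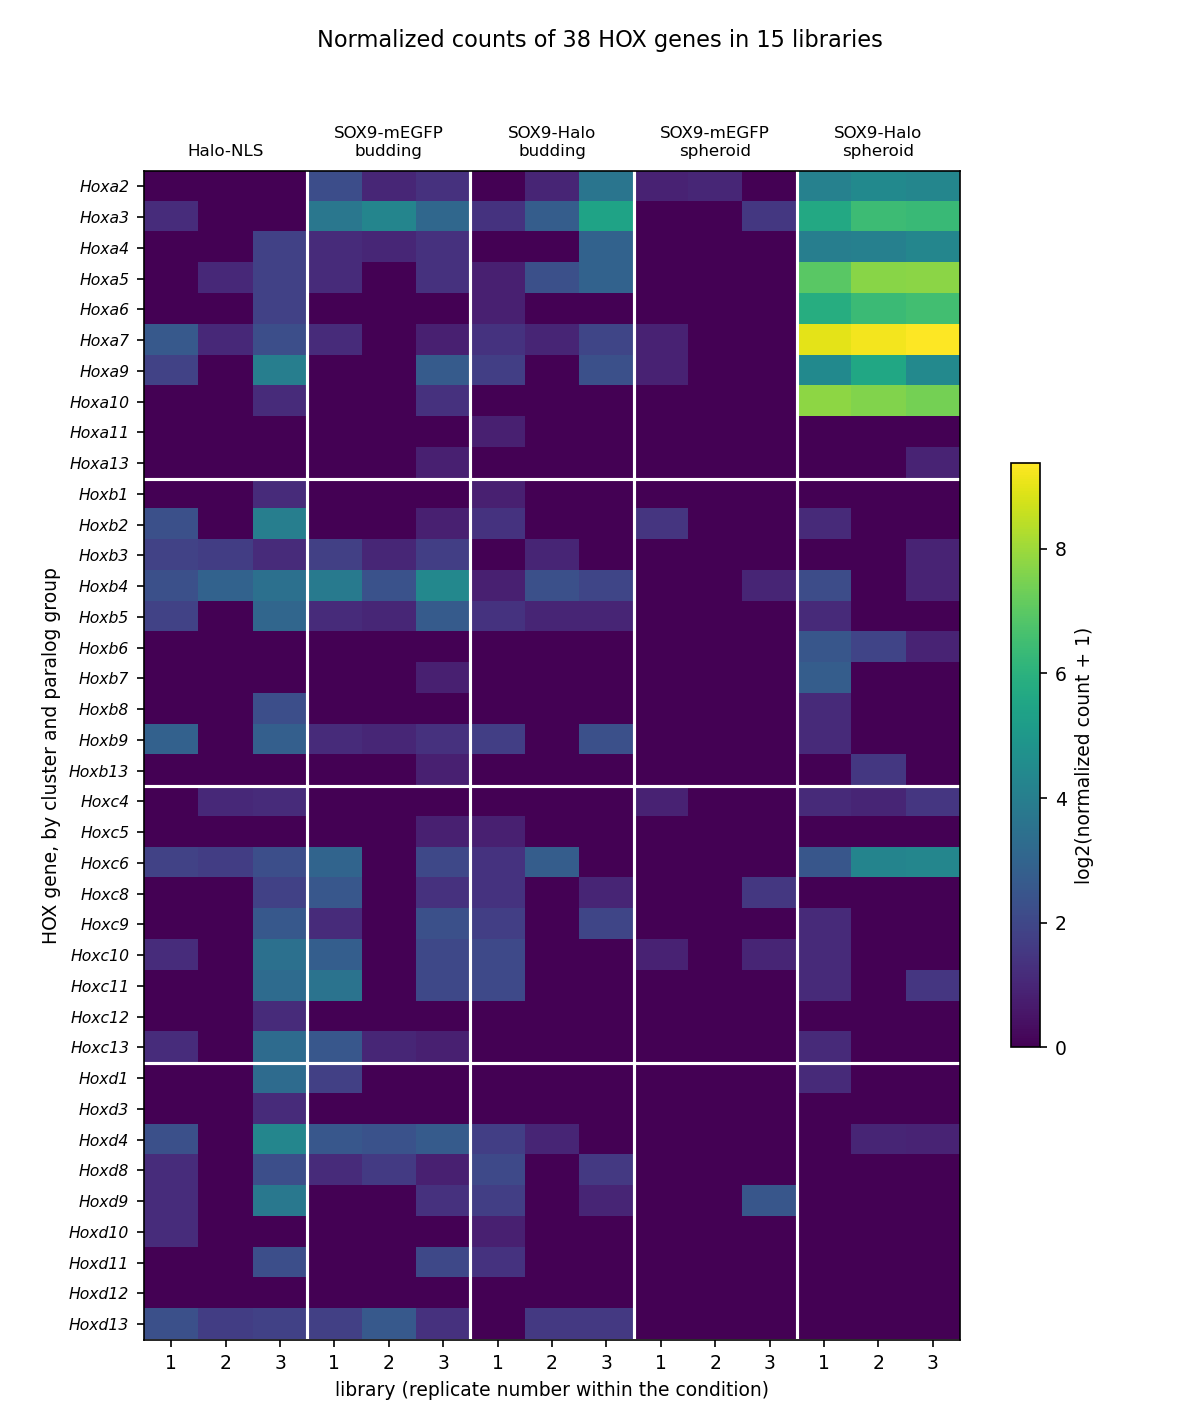
Heatmap of log2(normalized count + 1) for 38 HOX genes (vertical axis, by cluster and paralog group) in 15 libraries (horizontal axis, 3 for each condition). White lines separate clusters and conditions. The bright block is Hoxa2 to Hoxa10 in the SOX9-Halo_spheroid libraries. Hoxa11, Hoxa13 and most genes of the other clusters stay dark there, apart from Hoxc6, which is as bright as the lowest genes of the block in replicates 2 and 3 (19 and 21 reads). The scattered faint cells elsewhere are counts of 26 reads or fewer in HOXB, HOXC and HOXD and of 44 or fewer in HOXA.

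The HOXA genes described lie on the minus strand of chromosome 6 in the GRCm39 build, chr6:52138599-52237822, with Hoxa2 at the low coordinate and Hoxa13 at the high one. Sequences upstream of start sites are shown for the genes on which the pattern turns: Hoxa7, the most abundant member, Hoxa2, near the 3′ end, and Hoxa11, where the expressed row stopped. Each run is the RefSeq promoter in GRCm38.p6, 250 bases before to 50 bases after the start site, minus strand, written 5′ to 3′. Capitals mark matches on either strand to TTTATG (a CDX site) or TGATTNA (a HOX and PBX site).
Hoxa7 (chr6:52218524-52218823): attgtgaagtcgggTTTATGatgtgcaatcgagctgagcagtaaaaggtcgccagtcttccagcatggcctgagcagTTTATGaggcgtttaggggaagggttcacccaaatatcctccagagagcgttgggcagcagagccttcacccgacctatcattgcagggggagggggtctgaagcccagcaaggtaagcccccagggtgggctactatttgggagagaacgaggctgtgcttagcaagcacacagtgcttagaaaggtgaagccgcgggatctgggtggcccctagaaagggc
Hoxa2 (chr6:52164782-52165081): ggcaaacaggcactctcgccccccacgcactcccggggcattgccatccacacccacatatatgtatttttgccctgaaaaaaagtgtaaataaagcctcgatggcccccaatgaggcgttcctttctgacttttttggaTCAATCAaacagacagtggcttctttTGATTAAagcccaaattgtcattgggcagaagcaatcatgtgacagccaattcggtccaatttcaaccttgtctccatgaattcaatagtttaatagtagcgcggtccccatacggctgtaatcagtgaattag
Hoxa11 (chr6:52245761-52246060): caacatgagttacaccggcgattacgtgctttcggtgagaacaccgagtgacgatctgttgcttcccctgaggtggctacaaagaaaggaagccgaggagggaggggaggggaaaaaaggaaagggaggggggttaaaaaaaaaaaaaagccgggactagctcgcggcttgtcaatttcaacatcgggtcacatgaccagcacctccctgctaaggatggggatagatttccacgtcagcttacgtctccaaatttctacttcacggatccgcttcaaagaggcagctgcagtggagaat
The table held promoters for 22 of the 38 HOX genes and for 9 of the 10 HOXA genes, which had 10 promoters. TTTATG occurred in 1 of these 10, that of Hoxa7 with 2 matches, and in 11.9% of the 32851 promoters in the table. TGATTNA occurred in 1 of the 10, that of Hoxa2 with 2 matches, and in 10.3% of all promoters. ACAATG, a site bound by SOX proteins, occurred in none of the 10 HOXA promoters, in none of the 24 HOX promoters and in 12.6% of all promoters. A match describes the letters only, and an absent match says nothing about binding elsewhere.

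Genes passed when the adjusted p was 0.01 or lower, the change 2-fold or larger and the normalized count averaged over all libraries 10 or higher. The p-values came from edgeR's quasi-likelihood test and were adjusted by Benjamini and Hochberg's method over the 17560 genes tested. Of the 38 HOX genes 8, Hoxa2 to Hoxa7, Hoxa9 and Hoxa10, had enough reads to be tested, and without the SOX9-Halo_spheroid libraries only Hoxa3 would have been. The 8 were thus mostly tested because they were high in SOX9-Halo_spheroid, so the number that passed is a description and no evidence about HOX genes as a group. Of the 30 members not tested, 25 stayed under 10 reads in every library.

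Between SOX9-Halo_spheroid and Halo-NLS, 5 HOX genes rose and none fell: Hoxa3, Hoxa5, Hoxa6, Hoxa7 and Hoxa10. Over all genes tested, 28.8% passed in either direction and 13.6% passed as higher. Hoxa2 and Hoxa4 met the p and fold limits but had mean normalized counts under 10, and Hoxa9 did not reach the p limit.

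Toward the 3′ end, Hoxa2, a regulator of hindbrain and branchial arch identity, had 14, 22 and 21 reads in SOX9-Halo_spheroid against 0 in each Halo-NLS library. Set against 3 reads in each Halo-NLS library, the level was at least 5.06-fold higher (edgeR adjusted p = 0.00197).

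Hoxa3, needed for thymus and parathyroid formation, had 42, 90 and 90 reads in SOX9-Halo_spheroid and 1, 0 and 0 in Halo-NLS. The groups did not overlap, as for 54.8% of all genes tested, and replicate 1 held fewer reads than the other SOX9-Halo_spheroid libraries. The log2 fold change was 7.07 (SE 1.26, edgeR adjusted p = 0.000288), and the ratio of normalized totals was 179 with a 95% counting interval of 31.8 to 7111, wide because 1 read stood on the Halo-NLS side. Hoxa4 had 13, 17 and 21 reads against 0, 0 and 2, a log2 fold change of 4.16 (SE 1.10, edgeR adjusted p = 0.00738). Leaving out the 1 Halo-NLS library that held reads moved the log2 fold change to 9.20 for Hoxa3 (without replicate 1) and 7.11 for Hoxa4 (without replicate 3).

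Among the central genes, Hoxa5, which patterns lung and gut mesenchyme and the cervical skeleton, had 107, 220 and 241 reads in SOX9-Halo_spheroid and 0, 1 and 2 in Halo-NLS. The log2 fold change was 7.09 (SE 0.70, edgeR adjusted p = 2.69e-06), and 7.98 without Halo-NLS replicate 3. Hoxa6 had 48, 89 and 102 reads against 0, 0 and 2, and its log2 fold change was 6.36 (SE 0.74, edgeR adjusted p = 3.45e-05). Both Halo-NLS reads of Hoxa6 lay in replicate 3, without which it was 9.31. For both genes replicate 1 of the spheroids was the lowest and still lay far above every Halo-NLS library. Hoxa7 was the most abundant member, with 432, 636 and 744 reads against 4, 1 and 3. Its log2 fold change was 7.43 (SE 0.48, edgeR adjusted p = 1.76e-08).

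Toward the 5′ end, Hoxa9, a regulator of blood progenitors and a frequent leukaemia gene, had 18, 50 and 23 reads in SOX9-Halo_spheroid and 2, 0 and 12 in Halo-NLS. The groups did not overlap, as for 54.8% of all genes tested in this comparison. The spread within each group was wide, and the log2 fold change of 2.33 (SE 0.94) had an edgeR adjusted p of 0.0519. Without Halo-NLS replicate 3 it was 4.47, and without Halo-NLS replicate 2 it was 1.74. Hoxa10, known from uterine and limb patterning, had 187, 205 and 192 reads against 0, 0 and 1. Its log2 fold change was 8.51 (SE 0.70, edgeR adjusted p = 2.01e-06), and 10.64 without Halo-NLS replicate 3, which held the 1 read. Hoxa11, the next gene, had no read in any spheroid library of either line and 1 read in 1 SOX9-Halo_budding library. Hoxa13 had 1 read in 1 SOX9-Halo_spheroid library and 1 in 1 SOX9-mEGFP_budding library.

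The edge between Hoxa10 and Hoxa11 was therefore between adjacent genes. Hoxa2 (chr6:52138599-52141811) to Hoxa10 (chr6:52208164-52217834) spans 79.2 kb, and only 1.24 kb separates the end of Hoxa10 from Hoxa11 (chr6:52219074-52222806). Antisense Hoxa11os covers 43.6% of the Hoxa11 exon bases, and reads there are not counted for either gene under unstranded counting. Hoxa11os itself had no read in the SOX9-Halo_spheroid libraries.

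**Figure D2:**
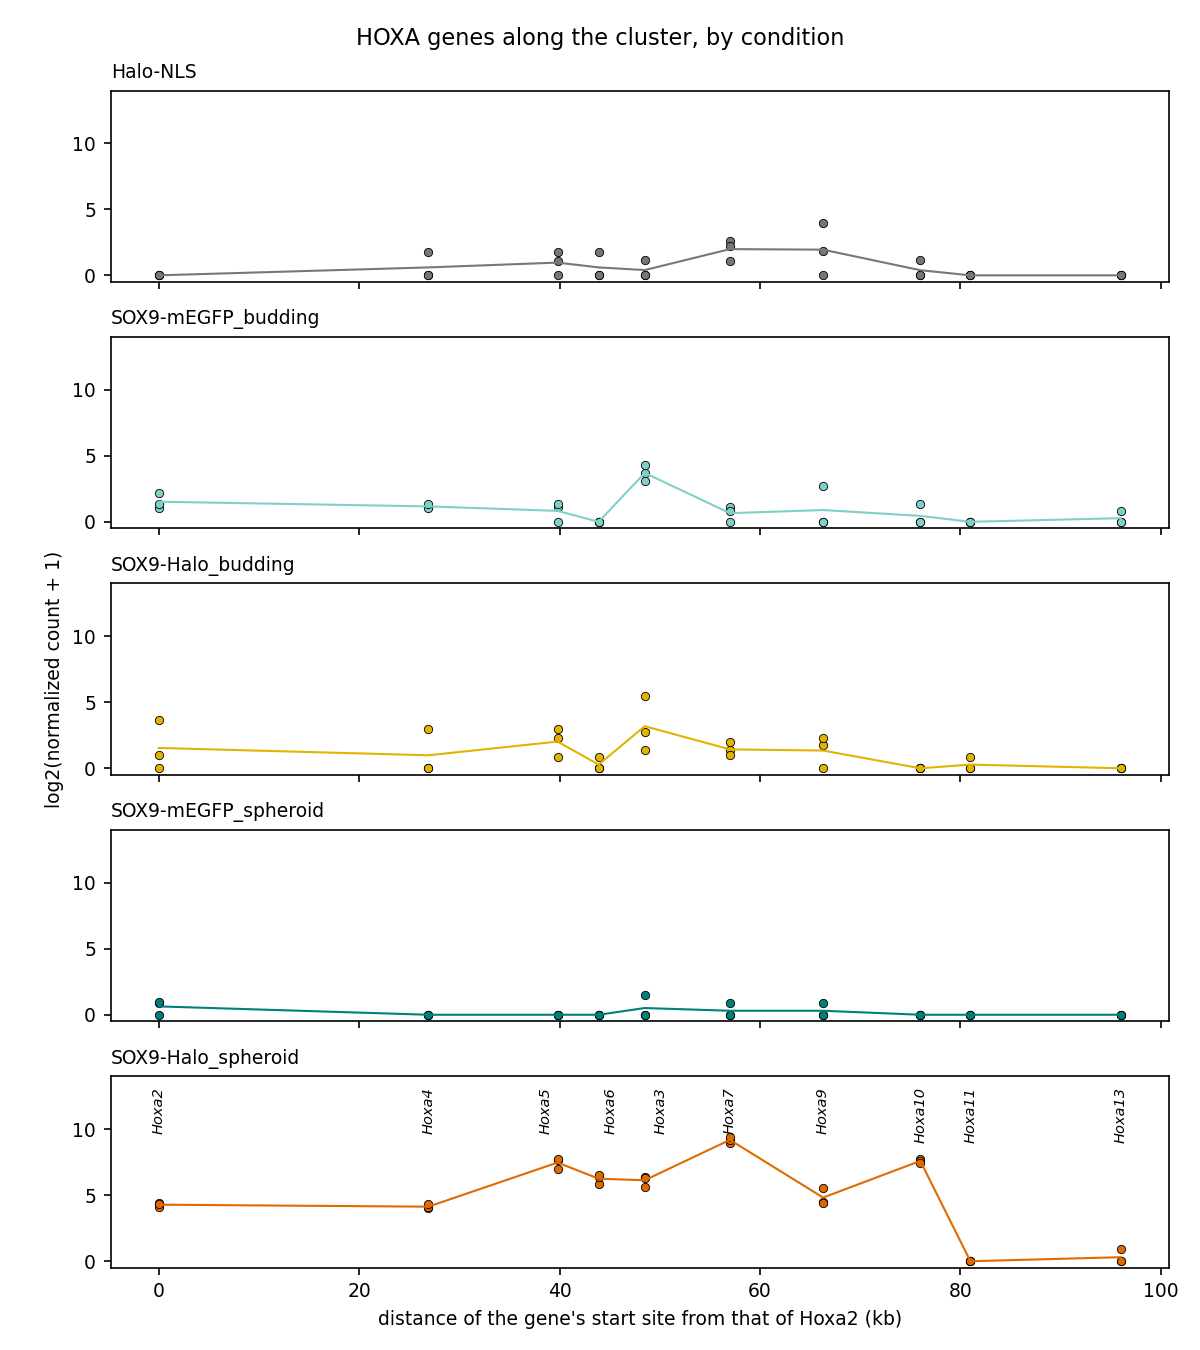
HOXA genes along the cluster in each of the 5 conditions. The horizontal axis gives the distance of each start site from that of Hoxa2 in kb, the vertical axis log2(normalized count + 1); points are the 3 libraries and lines join their means. In SOX9-Halo_spheroid all genes plotted from Hoxa2 to Hoxa10 lie above the other conditions and Hoxa11 and Hoxa13 lie at or near 0. In SOX9-mEGFP_spheroid every gene lies at or near 0.

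Levels within the row were uneven. Compared per length, as RPKM from union exon lengths, Hoxa7 stood at 6.12 ± 0.82 (SD, n = 3) in SOX9-Halo_spheroid, at the 69.1 percentile of 15726 expressed genes. Hoxa5 followed at 2.91 ± 0.79 and Hoxa6 at 2.63 ± 0.62, and these neighbours in the order did not differ beyond their spread. Hoxa10 stood at 1.76 ± 0.22. Hoxa4 (0.312 ± 0.035), Hoxa3 (0.310 ± 0.083), Hoxa2 (0.216 ± 0.024) and Hoxa9 (0.158 ± 0.081) formed the low end, where each overlapped the next in the order. Hoxa9 lay at the 15.8 percentile. The RPKM order did not follow the order along the chromosome, since the lowest gene lay between Hoxa7 and Hoxa10. Exon bases shared with other annotated genes, where reads are dropped, made up 23.7% for Hoxa3, 24.9% for Hoxa2, 20.3% for Hoxa7 and 9.4% for Hoxa9, and 0 for Hoxa5 and Hoxa6.

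Non-coding genes of the cluster were read along the same interval and were picked after their values were seen. Hotairm1, an antisense transcript, had 48, 42 and 52 reads in SOX9-Halo_spheroid, 2, 3 and 4 in SOX9-mEGFP_spheroid and none in Halo-NLS. It rose in SOX9-Halo_spheroid against Halo-NLS (edgeR adjusted p = 7.81e-06). In SOX9-mEGFP_spheroid the edgeR adjusted p was 0.00879, but the counts lay at about the floor of 3 per library and its mean over all libraries reached the limit through SOX9-Halo_spheroid, so no rise is stated there. The difference between the spheroid conditions passed (log2 fold change 4.01, SE 0.49, edgeR adjusted p = 0.000115). Gm15050, between Hoxa2 and Hoxa4, had 24, 30 and 36 reads in SOX9-Halo_spheroid and at most 4 in any other library. Hoxaas3 had 28, 30 and 33 against 2, 0 and 6 in Halo-NLS. Other non-coding genes did not rise. Gm29430, within the same interval, had no read in either spheroid condition and 5, 1 and 14 in Halo-NLS. Halr1, outside the interval beyond Hoxa2, had 0, 0 and 1 reads in SOX9-Halo_spheroid, 9, 5 and 9 in SOX9-mEGFP_spheroid and 0, 0 and 12 in Halo-NLS. Without strand, reads of these transcripts and of the HOX genes they overlap are separable only where their exons do not share bases.

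By paralog group, SOX9-Halo_spheroid reads lay mostly on the HOXA member in groups 2 to 7, 9 and 10. In group 7, Hoxa7 had 1812 reads summed over the 3 libraries and Hoxb7 had 5. In group 5, Hoxa5 had 568 and the other members 1 in total, and in group 10, Hoxa10 had 584 and the other members 1. Group 6 held 239 on Hoxa6 and 52 on the others, and group 4 held 51 and 10. Groups 8 and 12, which have no HOXA member, had 1 read and none, and groups 11 and 13 had 3 and 4.

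The reads outside HOXA in group 6 came mainly from Hoxc6, with 4, 19 and 21 reads in SOX9-Halo_spheroid, none in SOX9-mEGFP_spheroid and 0 to 6 in the budding and Halo-NLS libraries. Hoxb6 had 4, 3 and 1 reads in SOX9-Halo_spheroid and none in the other 12 libraries. Neither had enough reads to be tested, and both were picked after their values were seen. Hoxd13, at the 5′ end of HOXD, showed the opposite with no read in the 6 spheroid libraries and 0 to 5 in the others. Hoxd8, Hoxd10 and Hoxd11, among others, also had no read in the spheroids and at most 4 in any other library. None of these was tested, and they too were picked after their values were seen. Hoxb4 had up to 26 reads in SOX9-mEGFP_budding replicate 3 and 0 to 3 in the spheroids. Scattered reads on HOXB, HOXC and HOXD were most frequent in Halo-NLS replicate 3, with 110, and in SOX9-mEGFP_budding replicate 3, with 78, which were also the libraries with the most genes that had a read (40375 and 34646). The part of that breadth in those counts was not tested.

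The SOX9-Halo line was next compared with itself before the change of shape. Against SOX9-Halo_budding, 4 HOX genes rose in SOX9-Halo_spheroid (Hoxa5, Hoxa6, Hoxa7 and Hoxa10) and none fell, where 25.2% of all genes tested passed and 10.5% passed as higher. Hoxa7 went from 2, 1 and 3 reads to 432, 636 and 744, a log2 fold change of 8.26 (SE 0.50, edgeR adjusted p = 1.22e-08). Hoxa10 had no read in any SOX9-Halo_budding library and was at least 71.5-fold higher in the spheroids (edgeR adjusted p = 1.12e-06). Hoxa5 had 1, 4 and 7 reads before, a log2 fold change of 5.59 (SE 0.58, edgeR adjusted p = 5.09e-06). Hoxa6 had 1, 0 and 0 reads before and differed from the spheroids with edgeR adjusted p = 1.65e-05.

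For Hoxa3 the outcome turned on 1 library. SOX9-Halo_budding held 2, 6 and 44 reads on it, so replicate 3 came close to the spheroids at 42, 90 and 90 reads. In normalized counts it stood at 42.4 against 49.2 in the lowest spheroid library, and the log2 fold change was 2.12 (SE 0.75, edgeR adjusted p = 0.0339). Without that library it was 4.31 (SE 0.70, edgeR adjusted p = 0.000236), and with all libraries but no filter on low counts the edgeR adjusted p was 6.18e-05. Hoxa6 lost its call without SOX9-Halo_spheroid replicate 3, where its mean count fell under 10 and its edgeR adjusted p was 0.000152. Without SOX9-Halo_budding replicate 1, which held its 1 read, the log2 fold change of Hoxa6 was 9.26 in place of 7.52. SOX9-Halo_budding replicate 3 held the highest budding counts of Hoxa2 (12), Hoxa4 (7) and Hoxa5 (7), and not of Hoxa6 or Hoxa10, which had no read there. Hoxa9 had 3, 0 and 4 reads before and passed the p and fold limits (log2 fold change 3.75, SE 1.03, edgeR adjusted p = 0.00851) with a mean normalized count under 10. With only these 6 libraries in the fit, over which its mean count was above the limit, Hoxa9 was called without a block (log2 fold change 3.72, edgeR adjusted p = 0.00269) and with the replicate number as a block (3.61, 0.00516).

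In the budding organoids and in the other spheroid line no HOX gene passed by edgeR. Outside SOX9-Halo_spheroid the tested HOX genes other than Hoxa3 had at most 12 reads in any library. Counts this low left little room for a call, so the lack of calls is no evidence of unchanged levels. DESeq2 was run without the filter on low counts, so its unadjusted counts cover HOX genes beyond the 8 tested by edgeR. SOX9-mEGFP_budding against Halo-NLS gave 0 calls by edgeR and by DESeq2, with 2 HOX genes at an unadjusted p under 0.05 by each tool, where 2.76% of all genes passed by edgeR. SOX9-Halo_budding against Halo-NLS gave 0 by edgeR and 1 by DESeq2, Hoxa3, with 2 at an unadjusted p under 0.05 by each tool, where 3.75% of all genes passed. Hoxa3 had 10, 18 and 10 reads in SOX9-mEGFP_budding against 1, 0 and 0 in Halo-NLS. Its log2 fold changes were 4.58 (SE 1.46, edgeR adjusted p = 0.0482) in SOX9-mEGFP_budding and 4.95 (SE 1.41, edgeR adjusted p = 0.0275) in SOX9-Halo_budding, and both comparisons share the Halo-NLS libraries. Between the budding lines edgeR gave 0 calls, with 0 at an unadjusted p under 0.05, and DESeq2 gave 0 with 1, where 0.456% of all genes passed.

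SOX9-mEGFP_spheroid against Halo-NLS gave 0 calls by edgeR, with 2 at an unadjusted p under 0.05, and 0 by DESeq2, with 8, where 27.4% of all genes passed by edgeR. Leaving out SOX9-mEGFP_spheroid replicate 1 took Hoxa7 past the limits as lower (log2 fold change -4.76, edgeR adjusted p = 0.00865), as did leaving out Halo-NLS replicate 2 (-3.39, edgeR adjusted p = 0.00693), though it had 8 reads in all in Halo-NLS and 1 in SOX9-mEGFP_spheroid. Against SOX9-mEGFP_budding edgeR gave 0 calls with 1 at an unadjusted p under 0.05, and DESeq2 gave 1 with 6, where 16.4% of all genes passed by edgeR. The gene called by DESeq2 was Hoxa3, lower in the spheroids with 0, 0 and 2 reads against 10, 18 and 10 (edgeR log2 fold change -4.09, SE 1.27, adjusted p = 0.0247).

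**Figure D3:**
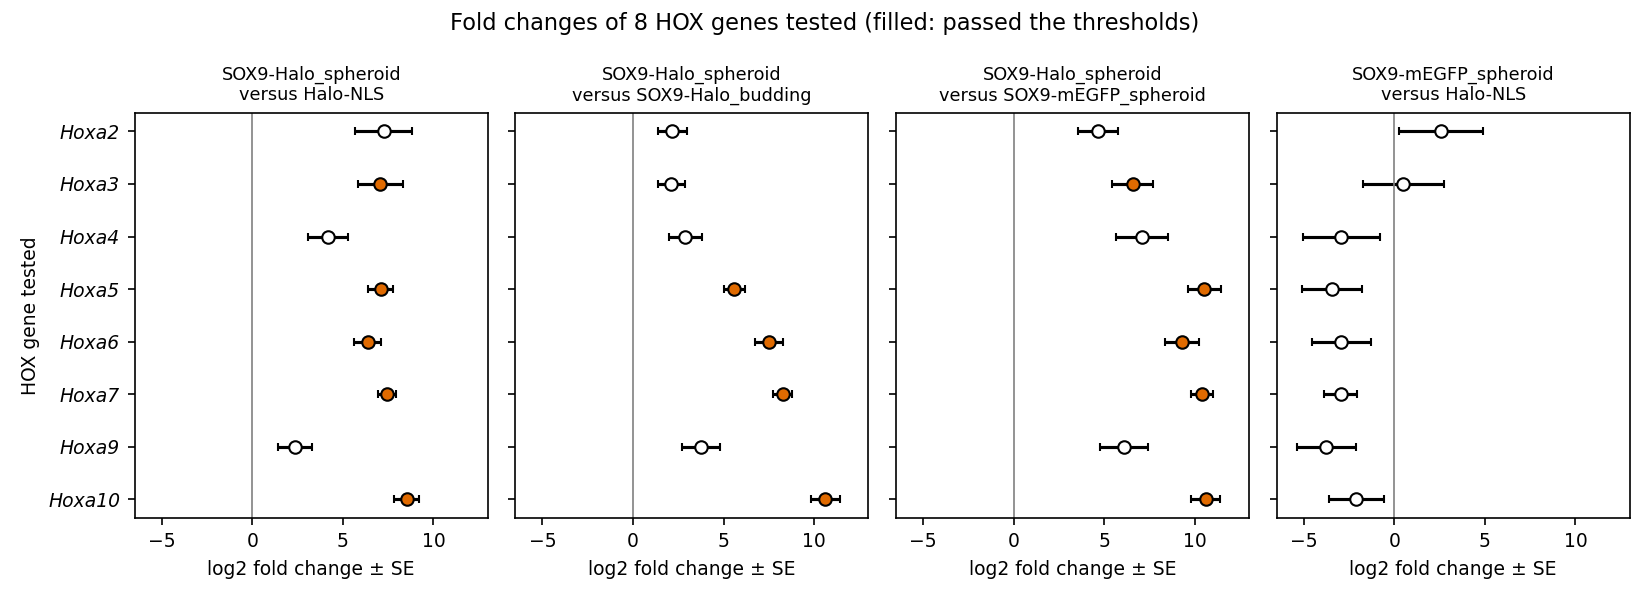
Log2 fold change with its SE (horizontal axis, edgeR) of 8 HOX genes tested (vertical axis, in cluster order) in 4 comparisons, one to a panel. Filled points passed the thresholds on adjusted p, fold and mean count. In the 3 panels of SOX9-Halo_spheroid every point lies to the right of 0, with 5, 4 and 5 filled. In the SOX9-mEGFP_spheroid panel none is filled. Fitted fold changes against conditions with all libraries at 0 depend on the prior count.

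Set directly against each other, the spheroid lines differed in 5 HOX genes, Hoxa3, Hoxa5, Hoxa6, Hoxa7 and Hoxa10, all higher in SOX9-Halo_spheroid, where 13.1% of all genes tested passed and 3.59% passed as higher. Hoxa7 had 1, 0 and 0 reads in SOX9-mEGFP_spheroid, and the log2 fold change was 10.40 (SE 0.60, edgeR adjusted p = 2.03e-08), and 12.18 without SOX9-mEGFP_spheroid replicate 1, which held that read. Hoxa5, Hoxa6 and Hoxa10 had no read in SOX9-mEGFP_spheroid and were at least 64.7-fold, 27.3-fold and 69.0-fold higher in SOX9-Halo_spheroid, by edgeR with adjusted p = 2.7e-06, 3.11e-05 and 3.24e-06. Hoxa3 differed by 6.58 (SE 1.13, edgeR adjusted p = 0.00051), and by 9.14 without SOX9-mEGFP_spheroid replicate 3, which held its 2 reads.

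An interaction term asked whether the log2 change between budding and spheroid cultures differed between the lines. By edgeR 4 HOX genes passed, all with a positive difference (SOX9-Halo minus SOX9-mEGFP). Over all genes tested, 7.37% passed and 1.81% passed in that direction. The estimates of these 4 genes rose in the SOX9-Halo line and fell in the SOX9-mEGFP line, where no fall passed by edgeR. For Hoxa3 the rise of 2.12 did not pass either, and the log2 fold change in the SOX9-mEGFP line was -4.09. Hoxa5, Hoxa7 and Hoxa10 had at most 2 reads in any library of the SOX9-mEGFP line. The difference was 13.23 for Hoxa10 (SE 2.37, edgeR adjusted p = 0.00341), 9.08 for Hoxa7 (SE 1.72, edgeR adjusted p = 0.00217), 8.72 for Hoxa5 (SE 1.97, edgeR adjusted p = 0.00956) and 6.21 for Hoxa3 (SE 1.46, edgeR adjusted p = 0.00972). The size for Hoxa10 and Hoxa5 depends on the prior count, since SOX9-mEGFP_spheroid had no read of either. For Hoxa6 the interaction had no usable error, because SOX9-mEGFP_budding and SOX9-mEGFP_spheroid had no read of it. DESeq2 called 5 genes, among them Hoxa6 (7.99, SE 2.23, DESeq2 adjusted p = 0.00462). Leaving out 1 library at a time gave 4 calls without SOX9-Halo_budding replicate 1 or 3, 3 without SOX9-mEGFP_budding replicate 2, 1 without SOX9-mEGFP_budding replicate 1 or 3 and 2 without any one of the others. Hoxa3 and Hoxa5 each kept their call in 7 of 18 alternatives, with edgeR adjusted p up to 0.0355 and 0.11, Hoxa7 in 16 and Hoxa10 in 17. Hoxa7 lost its call without SOX9-mEGFP_budding replicate 1 (edgeR adjusted p = 0.0266) or replicate 3 (0.0265), and Hoxa10 could not be fitted without SOX9-mEGFP_budding replicate 3, which held the line's 2 reads of that gene.

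HOX genes of the gut are best known from its mesenchyme, so markers of other cell types were read beside these results. The summed normalized count of 14 mesenchymal markers was 76.5 to 79.6 in SOX9-Halo_spheroid, 30.1 to 47.4 in SOX9-mEGFP_spheroid and 171 to 265 in Halo-NLS. In SOX9-Halo_spheroid it was thus lower than in Halo-NLS and higher than in SOX9-mEGFP_spheroid. Whether HOX reads came from other cell types was not tested. Twist1, Twist2, Dcn, Lum and Col3a1 had no read in SOX9-Halo_spheroid. Des was the mesenchymal marker that rose there against Halo-NLS, 1 of 4 tested, while Prrx1 and Pdgfrb fell. Over all genes tested 13.6% rose and 15.2% fell in that comparison. Enteric neural markers (5 genes, Elavl4 at 0) summed to 28.0 to 60.9 in SOX9-Halo_spheroid and 1104 to 2104 in Halo-NLS, and endothelial markers (4 genes, Tek and Kdr at 0) to 1.17 to 3.56 and 27.2 to 44.7. Immune markers (5 genes, Ptprc and Lyz2 at 0) summed to 111 to 270 and 40.8 to 138. Of 3 immune markers tested, Cd68 rose and Lyz2 fell. Of 3 neural markers tested 1 fell, and the 1 endothelial marker tested did not pass.

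Regulators and partners of HOX genes were read from the same fit, in which 13.6% of all genes rose and 15.2% fell in SOX9-Halo_spheroid against Halo-NLS, and 15.3% and 12.1% in SOX9-mEGFP_spheroid. The CDX and ParaHox genes are relatives of the HOX genes that set intestinal and pancreatic identity. In SOX9-Halo_spheroid against Halo-NLS all 3 that could be tested of 6 fell, with a median log2 fold change of -7.35, where the median of all genes was -0.01. Cdx2, the factor that keeps intestinal identity, went from a normalized count of 14536 ± 2762 (SD, n = 3) to 89.3 ± 13.5, a log2 fold change of -7.35 (SE 0.31, edgeR adjusted p = 8.54e-10). Cdx1 went from 12143 ± 2290 to 5.57 ± 5.20 (log2 fold change -11.00, SE 0.67, edgeR adjusted p = 1.03e-08). Pdx1, a duodenal and pancreatic factor, went from 129 ± 38 to 44.3 ± 21.2 (-1.53, SE 0.35, edgeR adjusted p = 0.00203, and 0.0125 and 0.0122 without SOX9-Halo_spheroid replicate 1 or 3). In SOX9-mEGFP_spheroid against Halo-NLS, Cdx2 and Cdx1 fell less far, to 2546 ± 767 and 138 ± 104, and Pdx1 rose to 416 ± 19. Pdx1 already stood at 328, 330 and 259 in the SOX9-mEGFP_budding libraries, against which its level in SOX9-mEGFP_spheroid did not pass. The spheroid lines differed for each: Cdx2 by a log2 fold change of -4.83 (SE 0.28, edgeR adjusted p = 2.1e-08), Cdx1 by -4.54 (SE 0.58, edgeR adjusted p = 3.6e-05) and Pdx1 by -3.22 (SE 0.36, edgeR adjusted p = 9.74e-06).

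Of 8 HOX cofactor genes described, 6 were tested, and 1 rose and none fell in SOX9-Halo_spheroid against Halo-NLS (median log2 fold change 0.52). Pbx3, a homeodomain partner of HOX proteins, went from 107 ± 26 to 402 ± 44 (1.90, SE 0.38, edgeR adjusted p = 0.000723). This 1 became 2 without Halo-NLS replicate 1 or SOX9-Halo_spheroid replicate 2 and with only the conditions compared. In SOX9-mEGFP_spheroid edgeR called none of the 6, with 4 at an unadjusted p under 0.05 and none called by DESeq2, and 1 was called without Halo-NLS replicate 1 and with library sizes alone. Pbx3 stood at 208 ± 51 there (0.95, SE 0.37, edgeR adjusted p = 0.0442).

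Of 30 Polycomb genes, all tested, 2 rose (Cbx6 and Yaf2) and 1 fell (Cbx7) in SOX9-Halo_spheroid, with a median log2 fold change of 0.41. In SOX9-mEGFP_spheroid 5 rose and 2 fell, with a median of 0.23 where the median of all genes was 0.03. These counts depended on Halo-NLS replicate 1: without it 10 were called in SOX9-Halo_spheroid and 11 in SOX9-mEGFP_spheroid. Of 16 Trithorax and H3K27 demethylase genes, which counter Polycomb, edgeR called none in SOX9-Halo_spheroid, with 4 at an unadjusted p under 0.05 and none called by DESeq2, and 2 rose and 1 fell in SOX9-mEGFP_spheroid. Those 3 became 0 without Halo-NLS replicate 3, and 1 without Halo-NLS replicate 2 or SOX9-mEGFP_spheroid replicate 2 or 3, and in SOX9-Halo_spheroid 1 was called without Halo-NLS replicate 1. Of 16 retinoic acid signalling genes, 7 were tested, and 2 rose (Rdh10 and Rarg) and 2 fell (Dhrs3 and Rara) in SOX9-Halo_spheroid. Rarg, a retinoic acid receptor, changed by a log2 fold change of 1.56 (SE 0.30, edgeR adjusted p = 0.000537) there and by 1.45 (SE 0.30, edgeR adjusted p = 0.0011) in SOX9-mEGFP_spheroid.

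Of 19 genes that flank the HOX clusters, 14 were tested, and 2 rose and 1 fell in SOX9-Halo_spheroid, 3 calls that became 6 without Halo-NLS replicate 1 and 5 under RLE scaling. Both that rose flank HOXA, and 13.6% of all genes tested rose in that comparison. Hibadh, between HOXA and Jazf1, did not pass, with a mean normalized count of 2753 in Halo-NLS and 3033 in SOX9-Halo_spheroid. Skap2, an adaptor protein gene beyond the 3′ end of HOXA, went from 1126 ± 82 to 2416 ± 321 (log2 fold change 1.10, SE 0.17, edgeR adjusted p = 7.36e-05). In SOX9-mEGFP_spheroid, where HOXA genes lay at or near 0, Skap2 stood at 1376 to 1686 against 1032 to 1184 in Halo-NLS. That change did not pass (log2 fold change 0.44). Skap2 also did not pass in SOX9-Halo_spheroid against SOX9-mEGFP_spheroid or against SOX9-Halo_budding. Jazf1, a zinc finger gene whose start site lies 904 kb from that of Hoxa2 on the Hoxa13 side, had 42, 56 and 76 reads in SOX9-Halo_spheroid, 1, 0 and 1 in Halo-NLS, 1, 0 and 0 in SOX9-mEGFP_spheroid and 1 to 5 in the budding libraries. Its difference between the spheroid lines had a log2 fold change of 7.03 (SE 0.76, edgeR adjusted p = 6.86e-06). Tax1bp1, which lies beside Jazf1, did not pass in SOX9-Halo_spheroid against Halo-NLS (-0.31, SE 0.44, edgeR adjusted p = 0.584). It was higher in SOX9-mEGFP_spheroid than in Halo-NLS (1.76, SE 0.45, edgeR adjusted p = 0.0052, a call kept in 7 of 12 alternatives and lost with only the conditions compared and without Halo-NLS replicate 2 or 3 or SOX9-mEGFP_spheroid replicate 1 or 2), and lower in SOX9-Halo_spheroid than in SOX9-mEGFP_spheroid (-2.07, SE 0.46, edgeR adjusted p = 0.00349). In SOX9-mEGFP_spheroid against Halo-NLS 2 of the flanking genes rose and 4 fell, 6 calls that became 2 without Halo-NLS replicate 3, 3 without SOX9-mEGFP_spheroid replicate 2 and 4 without Halo-NLS replicate 2 or SOX9-mEGFP_spheroid replicate 1 or 3. Evx1, between Hoxa13 and these genes, had no read in either spheroid condition. Without SOX9-Halo_spheroid replicate 2 or 3 the mean normalized count of Jazf1 fell under 10, while its edgeR adjusted p stayed at 4.74e-05 and 7.28e-05.

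**Figure D4:**
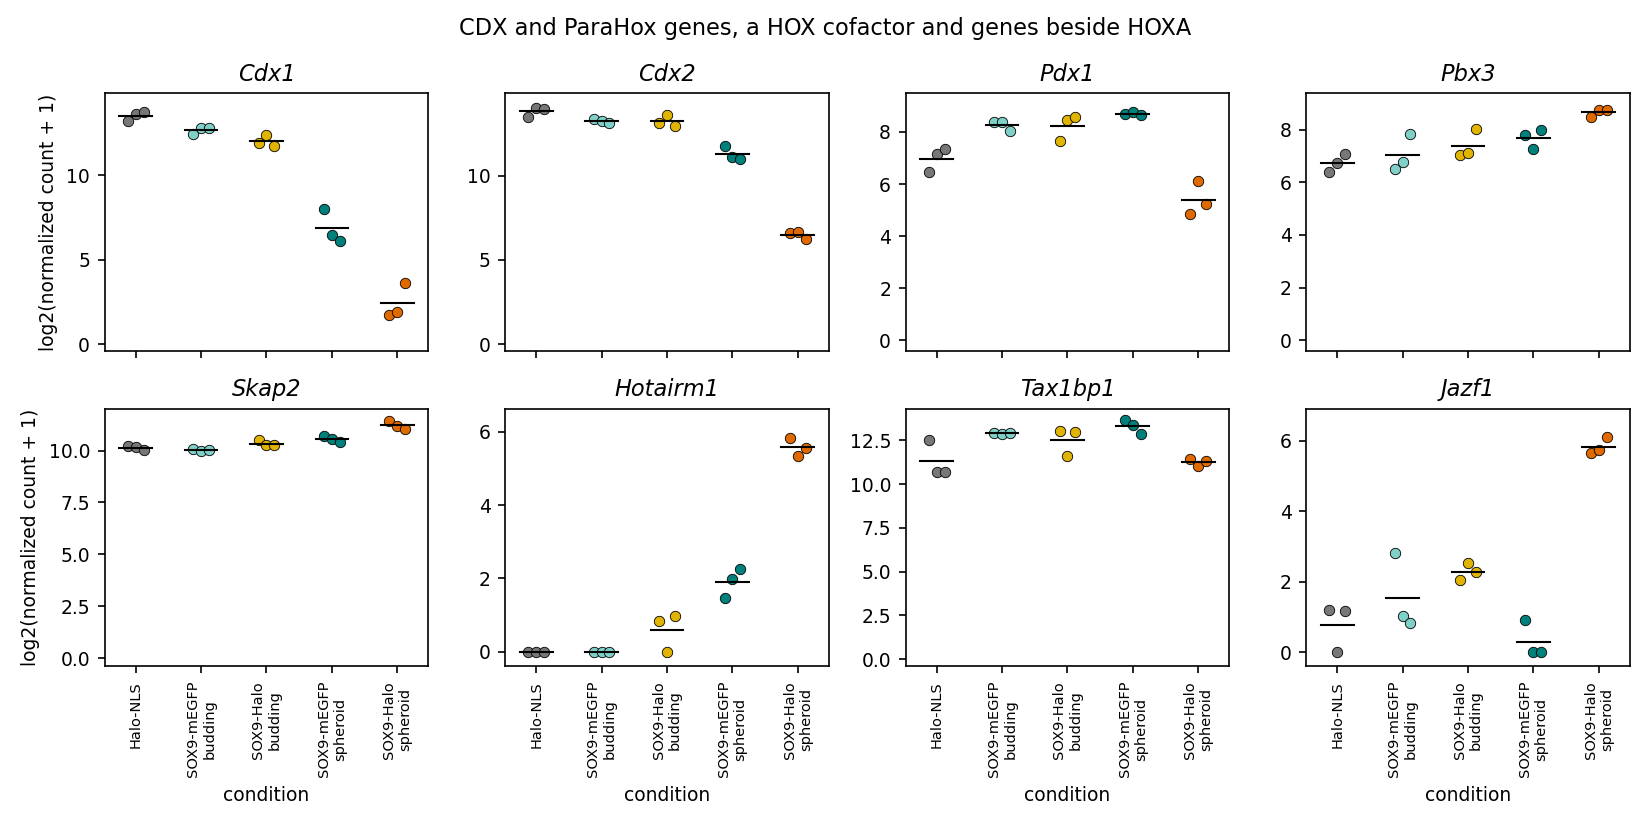
Log2(normalized count + 1) per library (vertical axis) in the 5 conditions (horizontal axis) for Cdx1, Cdx2 and Pdx1, the cofactor Pbx3, and Skap2, Hotairm1, Tax1bp1 and Jazf1 in or beside HOXA. Points are the 3 libraries, bars their mean, and each panel has its own vertical scale. Cdx1 and Cdx2 are lowest and Pbx3, Hotairm1 and Jazf1 highest in SOX9-Halo_spheroid, and Jazf1 is near 0 in SOX9-mEGFP_spheroid.

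Regulators of regional identity along the gut moved in both directions. Of 21 genes, 15 were tested, and 3 rose (Foxa1, Gata5 and Sox21) and 5 fell (Hnf4a, Gata6, Osr2, Foxa3 and Onecut2) in SOX9-Halo_spheroid, with a median log2 fold change of -0.73. Hnf4a, a factor of absorptive enterocytes, fell by 4.61 on the log2 scale (SE 0.28, edgeR adjusted p = 9.16e-09) and Gata6 fell by 3.46 (SE 0.31, edgeR adjusted p = 3.15e-07). In SOX9-mEGFP_spheroid 1 rose and 5 fell, with Hnf4a lower by a smaller amount (-1.36, SE 0.24, edgeR adjusted p = 0.000367), and the spheroid lines differed for it (-3.25, SE 0.26, edgeR adjusted p = 3.88e-07). The call of Gata5 (1.01, edgeR adjusted p = 0.00365) was lost under RLE scaling (0.98) and in DESeq2 (0.996), where the adjusted p still passed and the change was under 2-fold. It was also lost with only the conditions compared and without Halo-NLS replicate 1 or 3 or SOX9-Halo_spheroid replicate 2 or 3, where the log2 fold change was 0.85 to 1.03 and the adjusted p reached 0.0216.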

How the data were processed

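The deposited values were counts of reads per gene, 1 table per library. As the authors' methods and processing notes describe, reads were trimmed with cutadapt 4.5, aligned to GRCm39 with STAR and counted with HTSeq 2.0.2. The kit did not mark strand, so reads on exons shared by sense and antisense genes fall to neither; these and unassigned reads (1.83% to 6.09% on no gene, 9.65% to 13.6% on more than 1 gene) were left out of totals and tests. The authors' normalized table and comparison tables (fold changes and p-values) were not used. Depth was 28062722 to 40559766 reads per library; intervals and floors cover counting error only.

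All 15 libraries were fitted together in edgeR 4.0.16 (R 4.3.3) with TMM scaling, filterByExpr and 1 coefficient per condition; SE is the log2 fold change divided by the root of F. Against a condition with all libraries at 0, folds use a floor of 3 counts per library. Against 1 to 3 counts, ratios have exact 95% intervals. RPKM used GENCODE M39 exon lengths, where all 38 HOX genes described matched. The fit was also run on simulated counts, whose outcome is not given here, so no result rests on it. The alternatives were DESeq2 1.42.0, other scalings, no count filter, a replicate block, only the conditions compared, no mean minimum and each library left out. Replicate numbers were taken as pairing only SOX9-Halo_budding with SOX9-Halo_spheroid, where same-numbered deviations correlated at 0.363, 0.195 and 0.295 over 12082 genes; of the 10 pairs of conditions this was 1.

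Every HOX gene is accounted for, except 1 that, like a few genes of the lists, is not reported here, and those called in at least 1 of the 9 comparisons have each library's value. Listed genes called in either spheroid condition against Halo-NLS could be named, at most 6 a list. Members and lists were chosen with earlier results of these data known.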

Additional observations from a re-analysis of the deposited data

Results flagged for a closer look

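For 4 HOX genes the change between budding and spheroid cultures differed between the SOX9-Halo and SOX9-mEGFP lines, by the edgeR test of the difference itself. The estimates rose in the SOX9-Halo line and fell in the SOX9-mEGFP line, where no fall passed by edgeR. In the SOX9-mEGFP line Hoxa10 had 0, 0 and 2 reads before and none after, and Hoxa5 had 1, 0 and 2 before and none after. Hoxa7 had 1, 0 and 1 before and 1, 0 and 0 after. The size of the difference for Hoxa10 and Hoxa5 depends on the prior count. On the log2 scale, SOX9-Halo minus SOX9-mEGFP, the difference was 13.23 for Hoxa10 (adjusted p = 0.00341), 9.08 for Hoxa7 (0.00217), 8.72 for Hoxa5 (0.00956) and 6.21 for Hoxa3 (0.00972). The calls of Hoxa3 and Hoxa5 were kept in 7 of 18 alternatives each, those of Hoxa7 in 16 and of Hoxa10 in 17. The lines also differ in the tag and in the second transgene. Their spheroid cultures also differ in passage and in how far the spheroid shape had progressed, so none of these can be told apart.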

How the results depend on the processing

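No HOX gene changed direction among the results that were called, under any alternative run. The 5, 4 and 5 calls of SOX9-Halo_spheroid against Halo-NLS, SOX9-Halo_budding and SOX9-mEGFP_spheroid were 4 to 5, 3 to 5 and 4 to 5 with 1 library left out and 5 to 7, 4 to 5 and 5 to 8 under the other alternatives, with the 8 where no minimum was set on the mean count; Hoxa6 was lost without SOX9-Halo_spheroid replicate 3 because its mean normalized count fell under 10. The 4 calls of the difference between the lines became 2 with library sizes alone, 2 with only the conditions compared, 5 in DESeq2 and 1 to 4 with 1 library left out. With no filter on low counts, 1 gene was called in each of SOX9-mEGFP_budding and SOX9-Halo_budding against Halo-NLS and 1 in SOX9-mEGFP_spheroid against SOX9-mEGFP_budding, in place of 0; DESeq2 gave 1 in SOX9-Halo_budding against Halo-NLS and 1 in SOX9-mEGFP_spheroid against SOX9-mEGFP_budding. With 1 library left out SOX9-mEGFP_spheroid against Halo-NLS gave 0 to 1. The cause of these changes was not tested. Scaling by library size only moved the all-gene median of SOX9-Halo_spheroid against Halo-NLS to 0.28 (log2). The replicate block left the counts at 5, 4, 5 and 4; within the SOX9-Halo line, chosen after seeing the data, it gave 5 in place of 4, as did those 6 libraries without a block. Of 30 same-numbered pairs of libraries, 17 correlated over 0.1. The HOXB, HOXC and HOXD genes had too few reads to pass the filter of the edgeR fit.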
